A study of Ambystoma mexicanum with 12 samples.

Results

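The miR-200a inhibitor was given to axolotl spinal cords in 2 states, 4 days after injury and without injury, and the difference between its effects in these states was measured gene by gene from RNA-seq. All 12 libraries of the series enter this comparison, 3 in each of 4 groups. The value of each gene, here called the interaction, is the inhibitor effect after injury (4dpi inhibitor minus 4dpi control) minus the inhibitor effect without injury (uninjured inhibitor minus uninjured), on log2(TPM + 0.1), where TPM is a relative abundance corrected for transcript length. A positive interaction means that the effect of the inhibitor was more positive, or less negative, after injury. Of 15091 gene symbols, the 13824 with a mean of at least 1 TPM over the 12 libraries were tested, and 1267 were not.

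The 4dpi inhibitor cords had received an inhibitor, labelled miR-200 and named miR-200a in the study's methods, by pressure injection into the central canal, directly before a portion of the cord was removed, and were collected 4 days post injury (4dpi). The 4dpi control cords had received a control inhibitor with the same injury. The uninjured inhibitor cords had received the same inhibitor with no injury, and the uninjured cords are labelled as uninjured only. The titles of 2 of the 3 uninjured libraries carry the mark used for control, and the labels do not say whether these cords were injected. The inhibitor and the injection procedure therefore cannot be told apart in the uninjured state. The same limit holds for the interaction, because it includes the effect in that state. Animals measured 2 to 3 cm, and the labels give 10 animals pooled per library, so the spread between libraries is a spread between pools. The libraries are numbered 5, 6 and 7 in both inhibitor groups, 1, 5 and 6 in the 4dpi control group, and 1 and 5 in the uninjured group, whose unnumbered library is called 2 here.

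MicroRNAs are short RNAs that pair with messenger RNAs and lower their stability or translation, and an inhibitor is an oligonucleotide that binds the microRNA and blocks it. The miR-200 family is best known from mammalian epithelia, where it holds down the transcription factors ZEB1 and ZEB2. In the axolotl cord, ependymoglial cells line the central canal, divide after injury and rebuild the missing tissue, while phagocytes and other blood cells enter the lesion. Gene symbols are those of the human proteins that the assembled axolotl contigs matched best, so related axolotl genes with the same best match share a value.

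The 4 groups differed in more than single genes. Uninjured inhibitor libraries had 1170, 823 and 1399 symbols listed at 0 TPM, against 675, 775 and 776 in uninjured libraries, and 4dpi inhibitor libraries had 769 to 799, against 511 to 737 in 4dpi control libraries. On the first principal component, which held 55.5% of the variance, uninjured inhibitor libraries 5 and 7 (-119.1 and -145.2) lay at one end and 4dpi control library 1 (123.1) and uninjured library 1 (159.1) at the other, with the remaining 8 libraries between -51.7 and 57.7. Markers of neurons, ependymoglia and oligodendrocytes were above 0 in every library, and so were those of muscle, skin, cartilage, phagocytes, endothelium and fibroblasts, so the samples held transcripts of cord and of neighbouring tissue. In such whole tissue, fewer cells of a type and less RNA per cell cannot be told apart.

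TPM are relative, and the median interaction over all 13824 genes was 0.31, not 0. The interaction was above 0 for 9184 genes and below 0 for 4640. The median inhibitor effect was -0.69 after injury and -1.098 without injury. With median-of-ratios scaling of the libraries the median interaction was 0.014, and with quantile normalisation -0.085. Leaving out 1 library gave medians of 0.12 (without uninjured library 1) to 0.50 (without 4dpi control library 1). The median interaction of a gene list is given as measured and, beside it, relative to the median of all genes.

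At an adjusted p under 0.05 (limma, Benjamini-Hochberg over all genes tested, two-sided), 6 genes passed, which is 0.0434% of those tested. The interaction was positive for C1QTNF9, C1QTNF2, FNDC7 and IL27 (0.0289%) and negative for LYZ and PLBD1 (0.0145%). C1QTNF9 and C1QTNF2 encode secreted proteins, and FNDC7 a protein with fibronectin type III domains. These 3 genes were higher with the inhibitor after injury but lower with it in uninjured cords. IL27, a cytokine gene, was listed at 0 only in uninjured inhibitor cords. LYZ and PLBD1, genes of leukocytes in mammals, were higher with the inhibitor in both states, by a smaller ratio after injury.

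**Figure D1:**
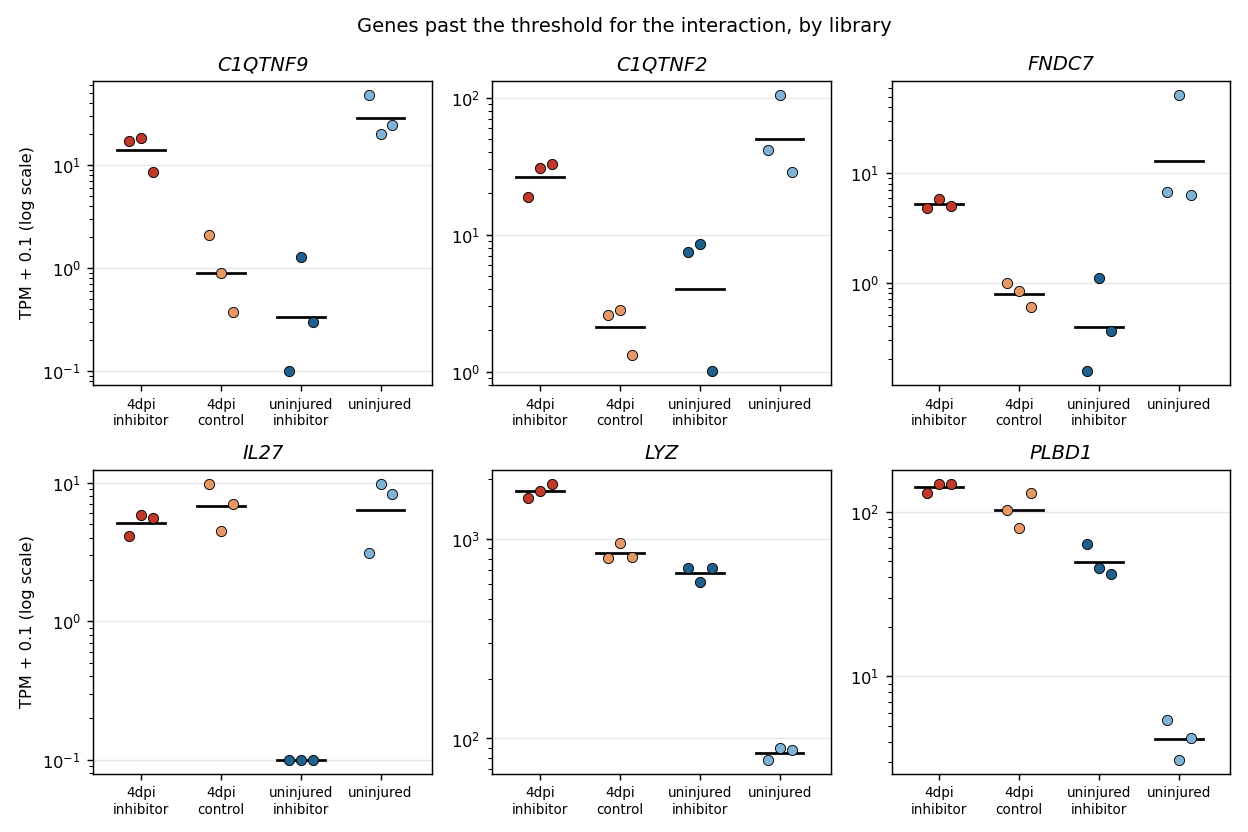
TPM + 0.1 on a log scale for the 6 genes that passed, with 1 point per library (pool of animals), 3 libraries per group, and a bar at the mean on the log scale. For C1QTNF9, C1QTNF2 and FNDC7 the order of inhibitor and comparison groups is opposite in the 2 states, for IL27 the uninjured inhibitor group alone is at 0, and for LYZ and PLBD1 the uninjured group lies far below the other groups.

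C1QTNF9 encodes a secreted protein of the C1q and tumour necrosis factor related family, known in mammals as an adipokine. It was at 17.1, 18.4 and 8.41 TPM in the 4dpi inhibitor libraries and 1.98, 0.798 and 0.278 TPM in the 4dpi control libraries, against 0, 1.17 and 0.2 TPM in the uninjured inhibitor libraries and 47.8, 19.9 and 24.3 TPM in the uninjured libraries. The inhibitor and comparison libraries did not overlap in either state, with 4dpi inhibitor above 4dpi control and uninjured inhibitor below uninjured. The inhibitor effect was 3.97 after injury and -6.41 without injury, and the interaction was 10.38 (SE 1.18, 95% interval 7.81 to 12.94, limma adjusted p = 0.00754). One uninjured inhibitor library was at 0, so this size depends on the 0.1 TPM added, and it was 7.40 with 1 TPM added.

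C1QTNF2, a member of the same family, was at 18.6, 30.3 and 32.5 TPM in the 4dpi inhibitor libraries and 2.48, 2.73 and 1.21 TPM in the 4dpi control libraries, against 7.40, 8.45 and 0.906 TPM in the uninjured inhibitor libraries and 41.0, 105 and 28.5 TPM in the uninjured libraries. Again the groups did not overlap in either state, and their order was opposite in the 2 states. The inhibitor effects were 3.64 after injury and -3.63 without injury, with an interaction of 7.27 (SE 1.02, 95% interval 5.05 to 9.49, limma adjusted p = 0.0267). FNDC7 encodes a protein with fibronectin type III domains. Of the 6 genes it alone has no matching symbol in the RefSeq axolotl annotation, so its name rests on the human protein match only. It was at 4.73, 5.68 and 4.89 TPM in the 4dpi inhibitor libraries and 0.885, 0.731 and 0.494 TPM in the 4dpi control libraries, against 0.0545, 1.01 and 0.261 TPM in the uninjured inhibitor libraries and 6.64, 52.0 and 6.17 TPM in the uninjured libraries. The 4dpi inhibitor libraries lay within a narrow range, whereas uninjured library 2 was far above the other uninjured libraries. The interaction of FNDC7 was 7.76 (SE 1.17, 95% interval 5.23 to 10.30, limma adjusted p = 0.0434), from inhibitor effects of 2.72 after injury and -5.04 without injury. Its size depends on the 0.1 TPM added. With 1 TPM added it was 5.21 and did not pass (limma adjusted p = 0.131). FNDC7 also did not pass with no filter (0.0709) or with a filter at 5 TPM (0.148).

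IL27 encodes a subunit of interleukin-27, a cytokine made by antigen-presenting cells in mammals. It was at 3.99, 5.73 and 5.46 TPM in the 4dpi inhibitor libraries and 9.67, 4.36 and 6.89 TPM in the 4dpi control libraries, against 0, 0 and 0 TPM in the uninjured inhibitor libraries and 3.00, 9.74 and 8.13 TPM in the uninjured libraries. The 4dpi inhibitor and 4dpi control libraries overlapped, and all 3 uninjured inhibitor libraries were listed at 0, so no fold is given for the uninjured state. The interaction was 5.58 with 0.1 TPM added (SE 0.72, limma adjusted p = 0.0132) and 2.52 with 1 TPM added, where it did not pass (adjusted p = 0.469). The uninjured inhibitor libraries, all at 0, added no spread to the SE, so the SE and adjusted p are likely too small. The same uninjured inhibitor libraries had the most symbols listed at 0 in the table, and the part of this in the value for IL27 was not tested.

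LYZ encodes lysozyme, the bacteriolytic enzyme of granulocytes and macrophages, and was the most abundant of the 6 genes. It was at 1609.6, 1744 and 1906 TPM in the 4dpi inhibitor libraries and 807, 954 and 817 TPM in the 4dpi control libraries, against 715, 614 and 718 TPM in the uninjured inhibitor libraries and 77.9, 89.5 and 87.5 TPM in the uninjured libraries. The libraries of each group lay close together, and inhibitor libraries were above their comparison libraries in both states without overlap. Mean TPM with the inhibitor was 2.04 times that of 4dpi control after injury and 8.03 times that of uninjured cords without injury. The interaction was -1.97 (SE 0.23, 95% interval -2.46 to -1.48, limma adjusted p = 0.00754). LYZ did not pass with median-of-ratios scaling (-2.28, adjusted p = 0.198), with each library centred on its median (-2.42, adjusted p = 0.196) or without a variance trend.

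PLBD1 encodes a lysosomal phospholipase B-like protein that human neutrophils carry in granules. It was at 129, 148 and 148 TPM in the 4dpi inhibitor libraries and 102, 79.6 and 129 TPM in the 4dpi control libraries, against 63.4, 45.0 and 41.8 TPM in the uninjured inhibitor libraries and 5.32, 2.99 and 4.10 TPM in the uninjured libraries. The groups did not overlap in either state, though after injury the lowest inhibitor library (129 TPM) and the highest control library (128.6 TPM) nearly met. The ratio of mean TPM was 1.37 after injury and 12.1 without injury, and the interaction was -3.10 (SE 0.38, 95% interval -3.92 to -2.28, limma adjusted p = 0.0105). Both PLBD1 and LYZ had their lowest levels in uninjured cords without the inhibitor.

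Whether the 6 genes passed depended on single libraries and on the scaling. C1QTNF9 and PLBD1 passed with median-of-ratios scaling, with centring and with quantile normalisation, whereas LYZ, C1QTNF2 and FNDC7 were lost with median-of-ratios scaling and with centring, and FNDC7 and IL27 with quantile normalisation. Without 4dpi inhibitor library 5 or 6, 0 genes passed in limma (517 positive and 155 negative at an unadjusted p under 0.05 without library 5, 521 and 289 without library 6), and the adjusted p of C1QTNF9 and of LYZ was 0.0561 without library 5 and 0.0550 without library 6. C1QTNF9 and LYZ passed in the other 10 fits without 1 library. PLBD1 also missed the threshold without 4dpi inhibitor library 7 (0.0577) and without 4dpi control library 6 (0.0580), and passed in 8 of 12 fits. IL27 passed in 7 of 12 fits (highest adjusted p 0.0996, without 4dpi inhibitor library 7), C1QTNF2 in 5 (0.140, without 4dpi inhibitor library 6) and FNDC7 in 4 (0.221, without 4dpi inhibitor library 6). Without uninjured inhibitor library 6, 11 genes passed, among them all 6, and the counts were 2 without 4dpi inhibitor library 7 or 4dpi control library 6 and 3 without 4dpi control library 5. The interaction itself ranged over the 12 fits from 9.50 to 11.34 for C1QTNF9, 6.27 to 7.82 for C1QTNF2 and 6.76 to 8.51 for FNDC7. For IL27 it was 5.26 to 6.09, for LYZ -2.05 to -1.90 and for PLBD1 -3.30 to -2.89. The sign of the interaction of each of the 6 genes was the same in all 12 fits, but the genes were selected on these libraries, so this is no further support.

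Across all genes the 2 inhibitor effects were related, and most effects were smaller after injury. Over 13824 genes, with no library shared between the 2 effects, Pearson's r was 0.60 and Spearman's rho 0.66, as a description across genes, which are not independent replicates. Without both libraries numbered 1 they were 0.42 and 0.47. Both effects were negative for 10518 genes and both positive for 1874, whereas 516 were higher with the inhibitor after injury and lower with it without injury, and 899 the other way round. The effect after injury was the smaller in size for 77.5% of genes, and for 77.1% with median-of-ratios scaling. C1QTNF9, C1QTNF2 and FNDC7 are among the 516.

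**Figure D2:**
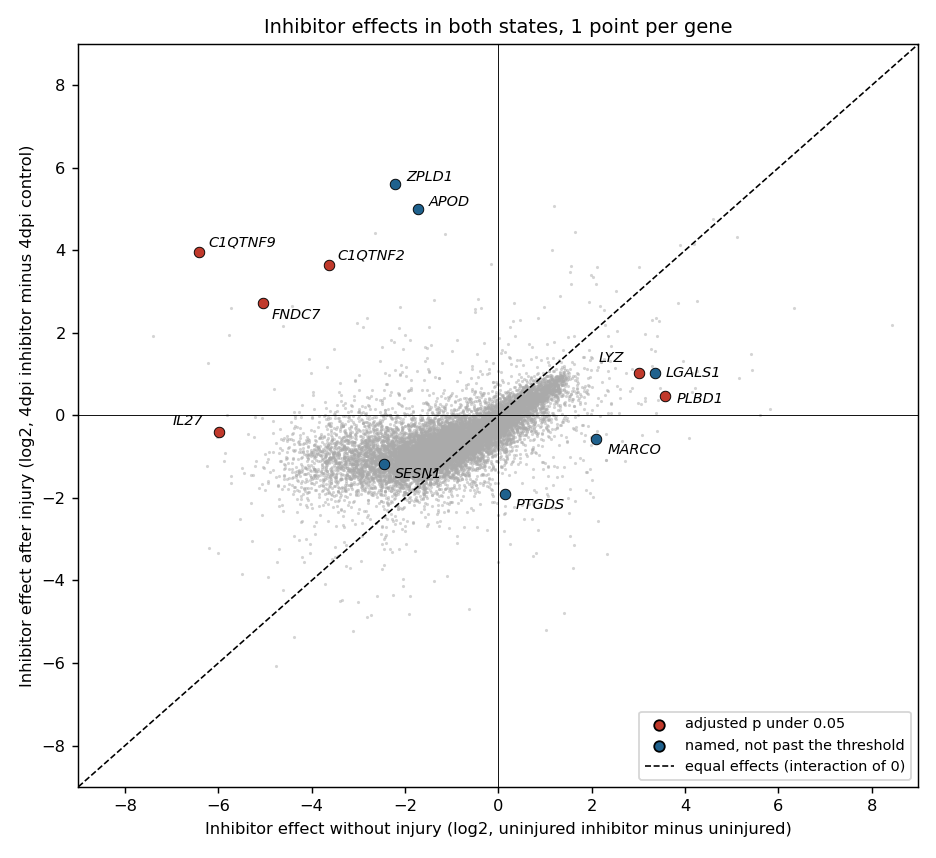
Inhibitor effect after injury (vertical) against inhibitor effect without injury (horizontal), both in log2, with 1 grey point per gene tested and a dashed line where the effects are equal (1 gene lies outside the range shown). Most genes lie in the lower left, above the dashed line, while C1QTNF9, C1QTNF2, FNDC7, ZPLD1 and APOD lie in the upper left and LYZ, PLBD1 and LGALS1 on the right, below the line.

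At an unadjusted p under 0.05 there were 8.17% of the genes, 910 with a positive interaction (6.58% of those tested) and 220 with a negative one (1.59%). Of the 910, 801 were lower with the inhibitor in both states, with a smaller log2 effect after injury, and 109 had opposite signs. Of the 220, 108 had opposite signs, and 104 were higher with the inhibitor in both states, with a smaller log2 effect after injury. The other 8 had the larger log2 effect after injury. The split moved with the scaling of the libraries: 888 positive and 441 negative with median-of-ratios scaling, 378 and 470 with quantile normalisation, and 674 and 620 with each library centred on its median. Single libraries moved the positive count by more than 1.5 times: it was 517 without 4dpi inhibitor library 5, 521 without 4dpi inhibitor library 6, 360 without 4dpi control library 5 and 353 without 4dpi control library 6, and 514 without uninjured inhibitor library 5 and 380 without uninjured inhibitor library 7. It was 2107 without 4dpi control library 1, 1885 without uninjured inhibitor library 6, 1485 without uninjured library 2 and 1417 without uninjured library 5. Without uninjured inhibitor libraries 5 and 7, 1 library is left in that group, so no counts are given for that fit.

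Expression level went with the direction. Genes with a mean of 1 to 5 TPM had a median interaction of 0.80, and 10.7% of them were positive and 0.736% negative at an unadjusted p under 0.05. For genes of 100 TPM and over the median was -0.26, with 0.960% positive and 5.06% negative. Uninjured inhibitor libraries 5 and 7 had the most symbols listed at 0. Without them, with 1 library left in that group, the median was 0.42 in the lowest class and -0.21 in the highest.

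**Figure D3:**
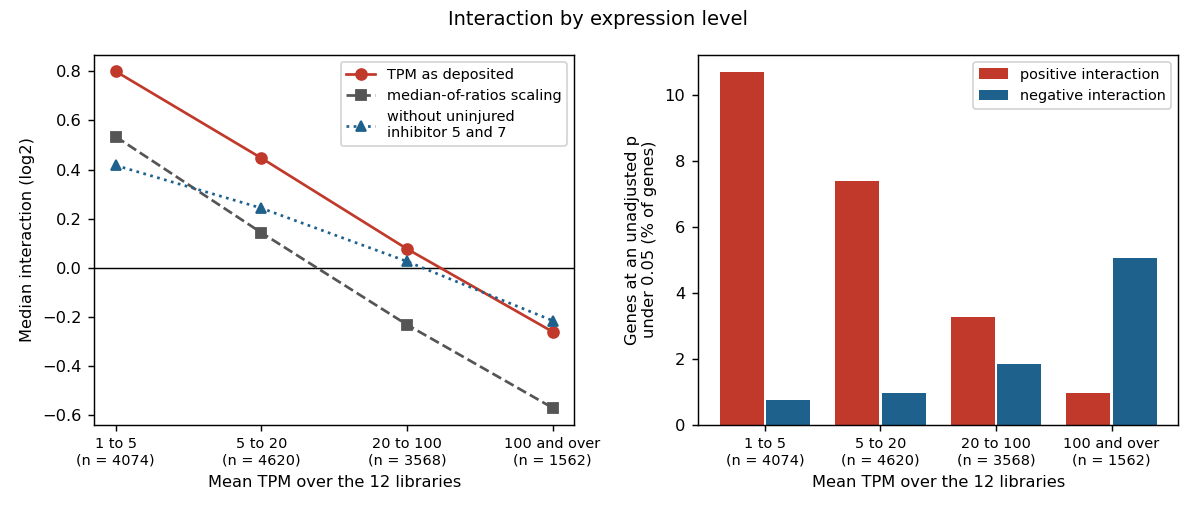
Left, median interaction (log2) in 4 classes of mean TPM, as deposited, with median-of-ratios scaling, and without uninjured inhibitor libraries 5 and 7. Right, percentage of the genes of each class with a positive or a negative interaction at an unadjusted p under 0.05, with 10.7% positive in the lowest class and 5.06% negative in the highest.

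The genes next in order did not pass, and every gene described for the first time from here on had an adjusted p between 0.270 and 0.871 (limma). ZPLD1, a gene with a zona pellucida-like domain, was at 723, 1179 and 1179 TPM in the 4dpi inhibitor libraries and 12.8, 70.2 and 9.69 TPM in the 4dpi control libraries, against 22.6, 256 and 15.3 TPM in the uninjured inhibitor libraries and 46.8, 547 and 349 TPM in the uninjured libraries. The 4dpi inhibitor libraries were all above the other 9 libraries, while uninjured inhibitor and uninjured libraries overlapped, and the interaction was 7.81 (SE 1.54, adjusted p = 0.27), which passed without uninjured inhibitor library 6 (9.07, adjusted p = 0.0223). APOD, which encodes the lipid-binding apolipoprotein D, had the same shape, at 182, 211 and 320.5 TPM in the 4dpi inhibitor libraries and 5.75, 17.5 and 3.60 TPM in the 4dpi control libraries, against 5.89, 58.5 and 6.66 TPM in the uninjured inhibitor libraries and 8.09, 163 and 64.2 TPM in the uninjured libraries. Its interaction was 6.72 (SE 1.47, adjusted p = 0.452), and without uninjured library 1 it passed (adjusted p = 0.0418).

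SESN1 encodes sestrin 1, a stress protein induced by p53 in mammals. It was at 59.8, 57.5 and 55.0 TPM in the 4dpi inhibitor libraries and 113, 138 and 139 TPM in the 4dpi control libraries, against 46.9, 50.5 and 42.4 TPM in the uninjured inhibitor libraries and 229, 258 and 285 TPM in the uninjured libraries. Inhibitor libraries were below comparison libraries in both states, and the gap was wider in uninjured cords, with an interaction of 1.29 (SE 0.25, adjusted p = 0.27). PDK4, a kinase that turns down pyruvate use in mitochondria, showed the same order, with 10.7 ± 3.62 TPM in 4dpi inhibitor and 29.7 ± 13.8 TPM in 4dpi control cords, and 3.28 ± 0.485 TPM in uninjured inhibitor and 62.9 ± 31.6 TPM in uninjured cords (SD, n = 3), and an interaction of 2.70 (adjusted p = 0.379). The trypsinogen gene PRSS1 had an interaction of 5.05 (adjusted p = 0.27), from 2.15 after injury and -2.89 without injury, at levels of 0.291 to 10.4 TPM.

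LGALS1 encodes galectin-1, a glycan-binding protein of glia and leukocytes. It was at 2314, 2228 and 1987 TPM in the 4dpi inhibitor libraries and 931, 1207 and 1099.5 TPM in the 4dpi control libraries, against 2014, 1621 and 1921 TPM in the uninjured inhibitor libraries and 101, 166 and 346 TPM in the uninjured libraries. The uninjured libraries were the lowest of the 12 and inhibitor libraries were above their comparison libraries in both states, with an interaction of -2.34 (SE 0.47, adjusted p = 0.301), which passed without uninjured library 5 (adjusted p = 0.0226). S100G, a small calcium-binding protein, had 287 ± 49.5 TPM in 4dpi inhibitor and 133 ± 38.8 TPM in 4dpi control cords, and 442 ± 139 TPM in uninjured inhibitor and 59.1 ± 5.38 TPM in uninjured cords (SD, n = 3) and an interaction of -1.73 (adjusted p = 0.39). The lipid carrier FABP1 had an interaction of -3.53 (adjusted p = 0.27), from 0.67 after injury and 4.21 without injury.

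**Figure D4:**
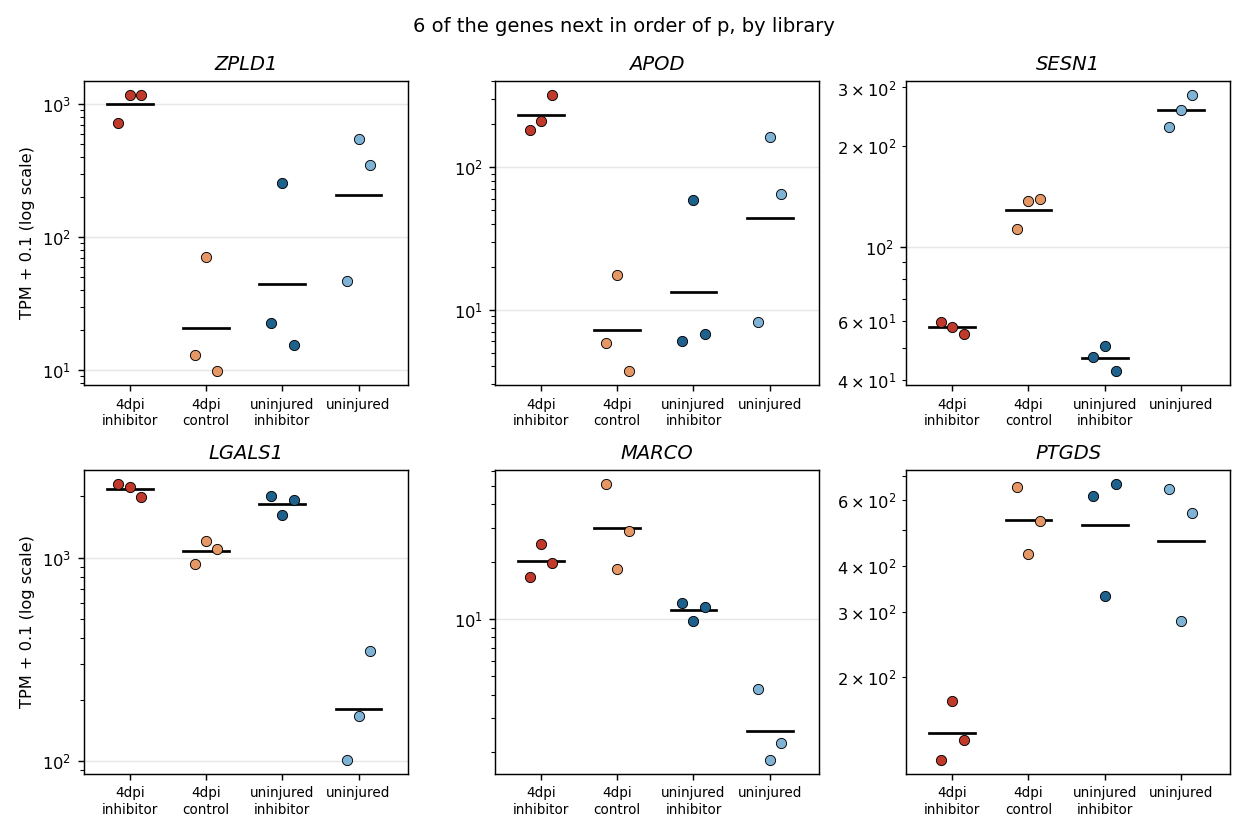
TPM + 0.1 on a log scale for ZPLD1, APOD, SESN1, LGALS1, MARCO and PTGDS, none of which passed the adjusted threshold, with 1 point per library and a bar at the mean on the log scale. ZPLD1 and APOD were highest in 4dpi inhibitor cords, SESN1 was lower with the inhibitor in both states, LGALS1 and MARCO were lowest in uninjured cords, and PTGDS was lowest in 4dpi inhibitor cords.

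PTGDS, which encodes prostaglandin D synthase, a secreted enzyme of meninges and choroid plexus in mammals, had another shape. It was at 119, 172 and 135 TPM in the 4dpi inhibitor libraries and 653, 430.0 and 529 TPM in the 4dpi control libraries, against 616, 331 and 666 TPM in the uninjured inhibitor libraries and 645, 282 and 554 TPM in the uninjured libraries. Only after injury were the inhibitor libraries separated from their comparison, below 4dpi control, while in uninjured cords the libraries overlapped, with an interaction of -2.06 (SE 0.47, adjusted p = 0.587). For HPX, the heme-binding plasma protein hemopexin, and the gelatinase MMP2, the inhibitor libraries were also below 4dpi control after injury and overlapped the uninjured libraries without injury. The group that stood apart was 4dpi control, above the other 9 libraries, whereas for PTGDS it was 4dpi inhibitor, below the other 9. HPX had 37.5 ± 5.62 TPM in 4dpi inhibitor and 161 ± 50.9 TPM in 4dpi control cords, and 26.9 ± 12.04 TPM in uninjured inhibitor and 22.4 ± 15.9 TPM in uninjured cords (SD, n = 3) and an interaction of -2.46 (adjusted p = 0.587). MMP2 had 87.6 ± 3.86 TPM in 4dpi inhibitor and 249 ± 78.6 TPM in 4dpi control cords, and 67.1 ± 9.14 TPM in uninjured inhibitor and 81.8 ± 17.9 TPM in uninjured cords (SD, n = 3) and an interaction of -1.18 (adjusted p = 0.587).

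Genes of microglia and macrophages were mostly on the negative side. Of 29 tested, 10 (34.5%, against 1.59% of all genes) were negative and 1 positive at an unadjusted p under 0.05, 0 passed in limma at the adjusted threshold, and the list median was -0.82, which is -1.13 relative to all genes and -1.22 after quantile normalisation. The scavenger receptor gene MARCO was at 16.6, 24.6 and 19.5 TPM in the 4dpi inhibitor libraries and 51.4, 18.1 and 28.9 TPM in the 4dpi control libraries, against 12.1, 9.67 and 11.4 TPM in the uninjured inhibitor libraries and 4.21, 1.72 and 2.12 TPM in the uninjured libraries. The inhibitor and control libraries overlapped after injury, and in uninjured cords all inhibitor libraries were above the uninjured ones. The interaction of MARCO was -2.68 (SE 0.57, adjusted p = 0.39), and it passed with median-of-ratios scaling (adjusted p = 0.0223) and with quantile normalisation (adjusted p = 0.00919). TREM2, the lipid receptor of microglia, had an interaction of -2.21, with effects of -0.44 after injury and 1.77 without injury, and passed with quantile normalisation (adjusted p = 0.0417). LCP1, an actin-bundling protein of leukocytes, had -1.11, from 0.55 after injury and 1.66 without injury. The summed level of the list was 0.139 to 0.186% of TPM in 4dpi inhibitor and 0.15 to 0.256% in 4dpi control libraries, and 0.0734 to 0.0949% in uninjured inhibitor and 0.0622 to 0.131% in uninjured libraries, so the inhibitor ranges overlapped those of their comparisons in both states.

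The median of 13 granulocyte genes was -0.57 (-0.89 relative to all genes), and -0.21 (-0.48 relative to all genes) without both libraries numbered 1. Of the 13, LYZ passed, and 2 were negative at an unadjusted p under 0.05 (15.4%, against 1.59% of all genes), LYZ included. The other was PRG2, the eosinophil granule major basic protein, at 134, 156 and 186 TPM in the 4dpi inhibitor libraries and 27.3, 32.6 and 19.1 TPM in the 4dpi control libraries, against 33.5, 30.2 and 37.6 TPM in the uninjured inhibitor libraries and 7.16, 0 and 0 TPM in the uninjured libraries. Its inhibitor libraries were above their comparison in both states, and since 2 uninjured libraries were listed at 0 the interaction of -3.73 (adjusted p = 0.587) depends on the 0.1 TPM added. Without uninjured library 1 PRG2 passed (limma adjusted p = 4.09e-05), but the uninjured libraries left in that fit were all at 0 and so showed no spread. With 1 TPM added and all libraries kept, the interaction of PRG2 was -1.54 (limma adjusted p = 0.680). C19orf38, a membrane protein gene of myeloid cells in human, had an interaction of -2.18 (adjusted p = 0.27), with 49.5 ± 3.89 TPM in 4dpi inhibitor and 60.2 ± 10.5 TPM in 4dpi control cords, and 32.1 ± 1.92 TPM in uninjured inhibitor and 9.003 ± 3.56 TPM in uninjured cords (SD, n = 3). The lysosomal protease gene CTSC had -0.70, although the 33 genes of the lysosome list had a median of 0.098 (-0.22 relative to all genes), with 1 positive and 3 negative (9.09%) at an unadjusted p under 0.05, PLBD1 among the negative ones.

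Galectins, annexins and their S100 partners, calcium- or glycan-binding proteins of membranes, had a median of -0.47 (-0.79 relative to all genes) over 21 genes, with 4 negative (19.05%, against 1.59% of all genes) and 0 positive at an unadjusted p under 0.05. Besides LGALS1 these included the annexin partner S100A10 (-1.01) and the phosphatidylserine-binding ANXA5 (-1.33). The median of the mean TPM of this list was 341. Of all genes of 100 TPM and over, 5.06% were negative at an unadjusted p under 0.05, with a median interaction of -0.26. S100A10 had 1737 ± 129 TPM in 4dpi inhibitor and 1106 ± 224 TPM in 4dpi control cords, and 1538 ± 196 TPM in uninjured inhibitor and 482 ± 88.1 TPM in uninjured cords (SD, n = 3), so its lowest level was in uninjured cords. Genes of heme breakdown, iron handling and antioxidant defence had 5 of 28 negative (17.9%) and 0 positive, among them HPX, the iron store subunit FTH1 (-0.81) and the lipid peroxidase GPX4 (-0.90). Of 27 apolipoproteins and lipid carriers, 4 were negative (14.8%) and 3 positive (11.1%, against 6.58% of all genes), with APOE, the main lipid carrier of the nervous system (-2.44), and FABP1 on one side and APOD on the other. Complement and coagulation genes had 3 of 21 negative (14.3%) and 0 positive, with a median of -0.47 (-0.78 relative to all genes). Without both libraries numbered 1 this median was -0.15 (-0.41 relative to all genes).

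Genes of abundant core machinery also lay below the median of all genes. Of 76 nuclear genes of oxidative phosphorylation, 12 were negative (15.8%, against 1.59% of all genes) and 0 positive at an unadjusted p under 0.05. Below 0 were 70 of 76, against 4640 of 13824 for all genes. Their median was -0.50, which is -0.82 relative to all genes and -0.28 after quantile normalisation. NDUFB6, a subunit of complex I, was at 1345, 1090.5 and 1295 TPM in the 4dpi inhibitor libraries and 672, 959 and 911 TPM in the 4dpi control libraries, against 1708, 1571 and 1668 TPM in the uninjured inhibitor libraries and 638, 691 and 788 TPM in the uninjured libraries. Inhibitor libraries were above their comparison in both states, with a wider gap in uninjured cords and an interaction of -0.66, and the complex I subunit NDUFB2 had -0.89. The list held 6.995 to 8.37% of TPM in 4dpi inhibitor and 4.50 to 6.50% in 4dpi control libraries, and 9.23 to 10.1% in uninjured inhibitor and 4.19 to 5.55% in uninjured libraries.

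Cytosolic ribosomal protein genes were below 0 in 77 of 77 cases, against 4640 of 13824 for all genes, with a median of -0.43. Of them, 1 (1.30%, against 1.59% of all genes), RPS26 (-0.73), was negative at an unadjusted p under 0.05. The median inhibitor effects of this list were positive in both states, 0.74 after injury and 1.19 without injury. RPS26 itself had -0.39 after injury and 0.34 without injury. Mitochondrial ribosome genes had a median of -0.41, with 5 of 74 negative (6.76%) and 0 positive, MRPL52 (-0.86) among them. Proteasome subunits, which form the protease for ubiquitin-tagged proteins, had a median of -0.56, with 5 of 31 negative (16.1%) and 0 positive, PSMA2 (-0.81) among them. These medians moved with the scaling. Relative to all genes they were -0.74 for cytosolic ribosomal proteins, -0.72 for the mitochondrial ribosome and -0.87 for the proteasome, and after quantile normalisation -0.21, -0.30 and -0.45 in the same order. The median of the mean TPM was 498 for oxidative phosphorylation, 1177 for cytosolic ribosomal proteins and 237 for the proteasome, at the high end of the expression classes given above. It was 98.2 for the mitochondrial ribosome. Of all genes of 100 TPM and over, 5.06% were negative at an unadjusted p under 0.05, with a median interaction of -0.26. For genes of 20 to 100 TPM the share was 1.85%.

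Genes of epithelia were on the positive side. Of 32 keratin, claudin and desmosome genes tested, 32 had an interaction above 0, against 9184 of 13824 for all genes. At an unadjusted p under 0.05, 9 (28.1%, against 6.58% of all genes) were positive. The list median was 1.41, which is 1.098 relative to all genes and 0.83 after quantile normalisation. CLDN4, a tight junction protein, was at 8.76, 23.6 and 16.0 TPM in the 4dpi inhibitor libraries and 55.2, 17.5 and 22.0 TPM in the 4dpi control libraries, against 1.92, 2.15 and 1.31 TPM in the uninjured inhibitor libraries and 40.0, 174 and 11.1 TPM in the uninjured libraries. After injury the libraries overlapped, and without injury every inhibitor library was below every uninjured library, with an interaction of 3.64 (adjusted p = 0.587). OVOL1, an epithelial transcription factor with 2 libraries listed at 0, had 3.09, or 0.98 with 1 TPM added. The keratin gene KRT7 was listed at 0 in 8 libraries, all 6 of the 4dpi groups among them, so no fold is given for it after injury. The list held 0.451 to 1.07% of TPM in 4dpi inhibitor and 1.27 to 1.40% in 4dpi control libraries, and 0.192 to 0.525% in uninjured inhibitor and 0.672 to 2.00% in uninjured libraries, and the part that skin in the dissections has in these values was not tested.

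The Schwann cell and skeletal muscle lists also had positive medians. Of 9 Schwann cell genes 9 were above 0, against 9184 of 13824 for all genes. At an unadjusted p under 0.05, 4 were positive (44.4%, against 6.58% of all genes), with a median of 2.12 (1.80 relative to all genes). PRX, the myelin protein periaxin, was at 3.77, 6.36 and 8.63 TPM in the 4dpi inhibitor libraries and 83.5, 6.97 and 6.54 TPM in the 4dpi control libraries, against 1.36, 1.53 and 0.151 TPM in the uninjured inhibitor libraries and 34.4, 27.0 and 54.2 TPM in the uninjured libraries. In uninjured cords every inhibitor library was far below every uninjured library, while after injury 4dpi control library 1 alone stood high, and the interaction was 4.07. NGFR, the low-affinity neurotrophin receptor, had 2.17 and the transcription factor POU3F1 2.96. Of 43 skeletal muscle genes 4 were positive (9.30%) and 0 negative, with a median of 0.97, or 0.66 relative to all genes (1.25 without both libraries numbered 1), NEB, the giant thin-filament protein nebulin (1.91), among them. The muscle list held 1.30 to 1.46% of TPM in 4dpi inhibitor and 2.08 to 3.62% in 4dpi control libraries, and 1.05 to 1.90% in uninjured inhibitor and 2.01 to 7.28% in uninjured libraries. Of 24 fibroblast genes 0 were positive and 0 negative at an unadjusted p under 0.05, with a median of 0.11 (-0.20 relative to all genes).

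Of 30 collagens and their processing enzymes 5 were positive (16.7%, against 6.58% of all genes) and 0 negative at an unadjusted p under 0.05, with a median of 0.76 (0.45 relative to all genes). COL21A1, a fibril-associated collagen, was at 5.41, 4.80 and 4.83 TPM in the 4dpi inhibitor libraries and 5.28, 2.37 and 2.70 TPM in the 4dpi control libraries, against 2.27, 3.02 and 2.71 TPM in the uninjured inhibitor libraries and 5.20, 18.2 and 6.43 TPM in the uninjured libraries. After injury the inhibitor and control libraries overlapped, whereas without injury every inhibitor library was below every uninjured library, with an interaction of 2.26. COL14A1, another fibril-associated collagen, had 3.58. Of 28 scar proteoglycan genes 3 were positive (10.7%), among them the syndecans SDC4 (1.82) and SDC1 (1.83), cell surface heparan sulfate proteoglycans, and the median was 0.66 (0.35 relative to all genes).

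Developmental and chromatin regulators had positive medians as well. Of 38 WNT ligands, receptors and antagonists, 10 were positive (26.3%, against 6.58% of all genes) and 0 negative, with a median of 0.85, or 0.54 relative to all genes and 0.24 after quantile normalisation. The ligand gene WNT10A was at 3.32, 3.75 and 1.98 TPM in the 4dpi inhibitor libraries and 7.25, 2.38 and 4.65 TPM in the 4dpi control libraries, against 0.262, 0.7 and 0 TPM in the uninjured inhibitor libraries and 11.4, 9.08 and 3.73 TPM in the uninjured libraries. After injury the libraries overlapped, and without injury every inhibitor library was below every uninjured library. The interaction of WNT10A was 4.04, or 2.25 with 1 TPM added. Of 36 HOX genes, which set position along the body axis, 6 were positive (16.7%) and 0 negative, with HOXA5 at 3.26 and HOXA7 at 2.53. BMP and TGF-beta pathway genes had 5 of 40 positive (12.5%), among them the inhibitory SMAD7 (1.29). Of 52 chromatin regulators 7 were positive (13.5%) and 0 negative, among them the histone methyltransferase KMT2A (2.65) and the remodeler CHD2 (2.56). The median of the mean TPM was 4.13 for WNT genes, 7.31 for HOX genes, 9.02 for chromatin regulators and 10.8 for BMP and TGF-beta genes, against 11.5 for all genes tested. Genes of 1 to 5 TPM had a median interaction of 0.80, near that of the WNT list, and 10.7% of them were positive. For genes of 5 to 20 TPM the median was 0.45, with 7.40% positive.

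**Figure D5:**
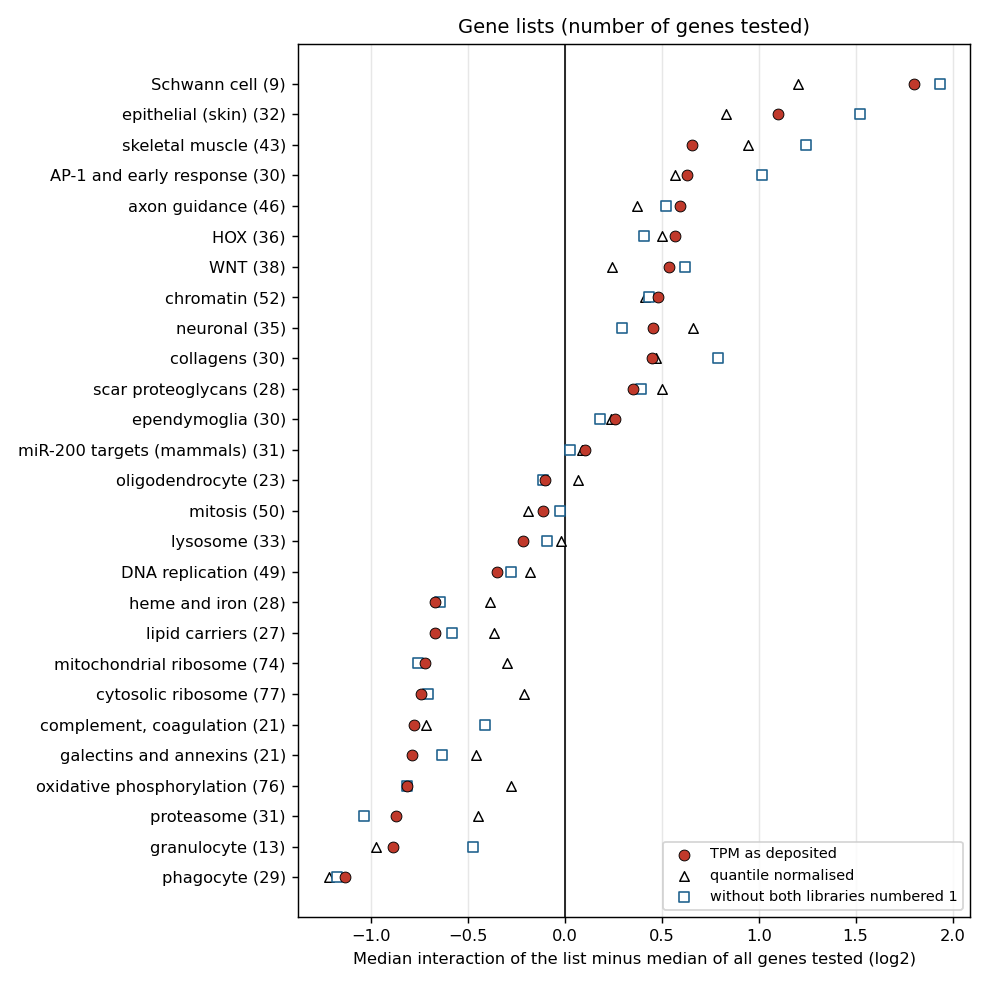
Median interaction of 27 gene lists minus the median of all genes tested (log2), with the number of genes tested in parentheses, as deposited (circles), after quantile normalisation (triangles) and without both libraries numbered 1 (squares). Schwann cell, epithelial and muscle lists lie on the right and phagocyte, granulocyte and proteasome lists on the left. As deposited, the miR-200 target list lies at 0.10 and the ependymoglia list at 0.26.

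AP-1 and early response genes, which cells switch on within minutes of a stimulus, had 6 of 30 positive (20%, against 6.58% of all genes) and 1 negative, with a median of 0.95 (0.63 relative to all genes). ZFP36, which destabilises cytokine messenger RNAs, had 2.88, and the AP-1 subunit BATF3 had -2.73. JUNB was at 158, 312 and 339 TPM in the 4dpi inhibitor libraries and 389.9, 212 and 285 TPM in the 4dpi control libraries, against 25.6, 55.5 and 35.8 TPM in the uninjured inhibitor libraries and 37.8, 347 and 39.0 TPM in the uninjured libraries. Uninjured library 2 lay within the range of the 4dpi libraries, and the interaction of 0.95 (SE 0.97, adjusted p = 0.714) was -0.11 without that library. FOS had 1.46 (SE 1.28). Of 38 chaperone genes 3 were positive (7.89%, near the share of all genes), led by the heat shock gene HSPA1A at 6.81, 263 and 497 TPM in the 4dpi inhibitor libraries and 16.1, 3.68 and 64.5 TPM in the 4dpi control libraries, against 0, 0.72 and 0.307 TPM in the uninjured inhibitor libraries and 12.2, 56.8 and 6.93 TPM in the uninjured libraries. Its level varied widely within the 4dpi groups, and the interaction was 8.34 (SE 2.09), or 6.34 with 1 TPM added. Its cochaperone DNAJB1 had 1.90, and the list median was -0.032 (-0.35 relative to all genes).

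The known targets of miR-200 in mammals had an interaction close to that of all genes. Of 31 tested, 1 was positive (3.23%, against 6.58% of all genes) and 0 negative at an unadjusted p under 0.05, and the median of 0.42 was 0.10 relative to all genes. JUN, the AP-1 subunit the study followed, was at 40.9, 78.3 and 59.3 TPM in the 4dpi inhibitor libraries and 121, 65.7 and 83.3 TPM in the 4dpi control libraries, against 21.4, 33.8 and 27.1 TPM in the uninjured inhibitor libraries and 70.8, 63.0 and 32.9 TPM in the uninjured libraries. Inhibitor and control libraries overlapped after injury, and so did inhibitor and uninjured libraries without injury. The inhibitor effects on JUN were -0.60 after injury and -0.96 without injury, near the medians of all genes (-0.69 and -1.098). By qRT-PCR the study reported higher c-Jun with the inhibitor, at an earlier day after injury and in uninjured cords. The interaction of JUN was 0.36 (SE 0.49, 95% interval -0.71 to 1.43, adjusted p = 0.779), and 0.053 with median-of-ratios scaling. ZEB1 had 0.32 (95% interval -0.82 to 1.46) and ZEB2 0.29 (95% interval -1.12 to 1.70), and the sign of both depended on the scaling.

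Of 30 ependymoglial genes 1 was positive at an unadjusted p under 0.05 (3.33%, against 6.58% of all genes). Of 35 neuronal genes and 23 oligodendrocyte genes 0 were. Lists of this size are too small to set such counts apart from the share of all genes. Medians relative to all genes were 0.26, 0.46 and -0.10 in the same order. The neuronal median was near that of the collagens (0.45). It was 0.66 after quantile normalisation and 0.30 without both libraries numbered 1. GFAP, the intermediate filament of glia, was at 97.2, 134 and 85.7 TPM in the 4dpi inhibitor libraries and 827, 313 and 421 TPM in the 4dpi control libraries, against 333, 262 and 639.7 TPM in the uninjured inhibitor libraries and 2335, 449 and 1041 TPM in the uninjured libraries. In both states every inhibitor library was below its comparison libraries apart from uninjured inhibitor library 7, which was above uninjured library 2, and the interaction was -0.77 (SE 0.75, 95% interval -2.40 to 0.86). The glutamate transporter SLC1A2 had 3.87 (SE 1.74), with 140.1 TPM in uninjured library 1 against 3.98 and 30.0 TPM in the other uninjured libraries. VIM, another intermediate filament, had -0.70 and the proteoglycan CSPG4 0.39, each within 2 standard errors of 0. A list of 35 genes held those the study names or measured, with the miR-200 targets ZEB1 and ZEB2 added. It also held PRG2 and PRG3, which the study's text does not name. Of the 35, 2 were positive (5.71%, against 6.58% of all genes) at an unadjusted p under 0.05. Negative were 3 (8.57%, against 1.59% of all genes), PRG2 among them, and the median was 0.32 (0.0032 relative to all genes). Since the study chose many of these 35 genes on these samples, they are no independent evidence.

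The lists of cell division genes had medians below that of all genes. Of 50 mitosis genes 1 was positive (2.00%, against 6.58% of all genes), TOP2A, the topoisomerase that untangles chromosomes (2.52), and 0 were negative, with a median of 0.20 (-0.11 relative to all genes). Of 49 DNA replication genes 0 were positive and 1 negative (2.04%, against 1.59% of all genes), with a median of -0.036 (-0.35 relative to all genes). Of 14 red cell genes 1 was positive (7.14%, against 6.58% of all genes) and 1 negative (7.14%, against 1.59%), the negative one being the globin gene HBA2 (-1.27).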

How the data were processed

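RNA-seq of pooled axolotl spinal cords was analysed for 12 libraries, 3 per group, grouped by their labels. By the study's methods, the authors built contigs from the pooled reads of every library (Trinity), named them after the best human protein match (BLASTX) and estimated abundance with Bowtie 0.12.1 and RSEM 1.1.6. Their own tests used DESeq2 1.16.1 on counts, which are not used here. The deposited values are TPM as the authors computed them per gene symbol, and each library sums to 1000000, so depth is unknown and no counting error is given. The table had turned 25 symbols into dates, which were set back. The study's methods describe electroporation, larger animals and smaller pools than the labels, whose values are used.

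log2(TPM + 0.1) was fitted with limma 3.58.1 (R 4.3.3) with 1 term per group and 8 residual degrees of freedom, empirical Bayes with trend, and p-values adjusted by Benjamini-Hochberg across the 13824 genes averaging 1 TPM or more. The code was tested on simulated data. Lists are described by counts and medians, with no set test. Members, lists and tests were chosen with earlier results of these data known. Named genes are those that passed with a group mean of at least 5 TPM and at most 3 libraries at 0, those next in order of p, up to 3 members per list with the smallest p and its most abundant member, and genes the study names. Added to the last were ZEB1 and ZEB2, targets of miR-200 in mammals. Alternatives were the pseudocount, the filter, scaling, variance trend, library weights, replicate block, muscle or neuron level as covariate, left-out libraries and the threshold. Of the genes tested, 11481 have the same symbol in the RefSeq axolotl annotation, and no sequence is printed.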

Additional observations from a re-analysis of the deposited data

Results flagged for a closer look

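For 6 genes the difference between inhibitor and comparison libraries was not the same in injured and uninjured cords, by the interaction test in limma. The labels name a control inhibitor for the 4dpi control cords only. Injury and the injection procedure therefore cannot be told apart as sources of this difference. The interaction (log2, effect after injury minus effect without injury) was 10.38 for C1QTNF9, 7.27 for C1QTNF2, 7.76 for FNDC7, 5.58 for IL27, -1.97 for LYZ and -3.10 for PLBD1. C1QTNF9, C1QTNF2 and FNDC7 were higher with the inhibitor in 3 of 3 injured libraries and lower with it in 3 of 3 uninjured ones, without overlap. They were selected on these same libraries, so the separation is a description and no further support. The share of all genes separated in this way was not counted. With only the 4 libraries numbered 5, 1 per group and with no test, the values were 12.19, 4.66, 7.88, 6.24, -2.27 and -3.22 for the 6 genes in the same order. These 4 libraries are among those on which the genes were selected. No group is large enough for a test of single outlying libraries.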

How the results depend on the processing

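Leaving out 1 library gave 0 to 11 genes past the threshold (0 to 9 positive, 0 to 3 negative). Library weights gave 5048 (3529 positive, 1519 negative) by REML, which stopped before converging, and 1953 (1513 and 440) gene by gene, each including all 6. Without uninjured inhibitor libraries 5 and 7, 1 library is left in that group, so no count is given. Positive calls numbered 2 with 1 TPM added, no filter, a filter at 5 TPM, with median-of-ratios scaling, with quantile normalisation, centring, no variance trend, the muscle covariate, and without both libraries numbered 1 with or without median-of-ratios scaling. Negative calls numbered 7 with quantile normalisation and 4 with the neuron covariate. Of the 6 genes, 3 passed with median-of-ratios scaling or centring, 4 with quantile normalisation and 4 without both libraries numbered 1. The median of all genes was 0.014 with median-of-ratios scaling, -0.085 with quantile normalisation, -0.13 with centring and -0.032 without both libraries numbered 1 and with median-of-ratios scaling. Over the alternatives that keep more than 1 library per group, the count at an unadjusted p under 0.05 ranged from 353 to 4365 positive and 125 to 2083 negative. Over fits without 1 library the positive count ranged from 353 (without 4dpi control 6) to 2107 (without 4dpi control 1). The negative count ranged from 125 (without 4dpi inhibitor 7 or uninjured inhibitor 5) to 542 (without 4dpi control 1).

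The sign reversed for genes that had not passed: JUN with centring (-0.084), ZEB1 with centring (-0.13), without both libraries numbered 1 (-0.0035, or -0.31 with median-of-ratios scaling) and without uninjured inhibitor libraries 5 and 7 (-0.16), ZEB2 with median-of-ratios scaling (-0.013), quantile normalisation (-0.14), centring (-0.15), without both libraries numbered 1 and median-of-ratios scaling (-0.23) and without uninjured inhibitor libraries 5 and 7 (-0.16) or uninjured library 1 (-0.23), JUNB without uninjured library 2 (-0.11), and CSPG4 with quantile normalisation (-0.35) and centring (-0.057). The cause was not tested. Of 1816 values of named genes under the alternatives, 1625 kept their direction and, where tested, their side of the threshold, 110 newly passed and 63 no longer passed. Over the fits without 1 library the value ranged from -0.23 to 0.78 for ZEB2 and from -0.11 to 1.49 for JUNB. With the replicate block, the number in the title as a term over the 11 numbered libraries, 1 gene passed (0 positive, 1 negative), CLEC5A, named after its value was seen, and 0 of the 6. Of 11 same-numbered pairs, 3 had correlated deviations over 0.1 (range -0.307 to 0.507, the highest for 4dpi control 1 with uninjured 1), so not every pair deviated together and the numbers were not taken as pairs. The alternatives without both libraries numbered 1 with scaling, without uninjured inhibitor libraries 5 and 7, and gene-by-gene weights were added after the data were seen. With 3 pools per group and unknown depth, small differences cannot be resolved.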

Other observations

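The 10 tested genes of the mitochondrial genome, which encode core subunits of the respiratory chain, had a median interaction of -2.68, further from 0 than that of the other lists examined. Below 0 were 10 of 10, against 4640 of 13824 for all genes, and none reached an unadjusted p under 0.05 (limma). The median of their mean TPM was 2.10, so the summed level of the list comes from its more abundant members. Without both libraries numbered 1 the median was 0.11. The list held 4.48 to 5.77% of TPM in 4dpi inhibitor and 2.37 to 3.54% in 4dpi control libraries, and 3.25 to 5.64% in uninjured inhibitor and 2.10 to 2.95% in uninjured libraries. Genes of motile cilia, which ependymal cells carry, had a median of -0.095, or -0.41 relative to all genes. Of 36 tested, 2 were negative (5.56%, against 1.59% of all genes) and 0 positive at an unadjusted p under 0.05. Of 46 axon guidance genes 43 had an interaction above 0, against 9184 of 13824 for all genes, with a median of 0.91 (0.60 relative to all genes). At an unadjusted p under 0.05, 3 were positive (6.52%, near the 6.58% of all genes).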
